A study of Homo sapiens with 18 samples.

Results

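The 10 genes that encode cAMP phosphodiesterases, chosen by name (PDE3A, PDE3B, PDE4A, PDE4B, PDE4C, PDE4D, PDE7A, PDE7B, PDE8A and PDE10A), were followed in HEK293 cells, a line of human embryonic kidney origin. On GRCh38, PDE4D lies at chr5:58969038-60522120 on the minus strand, PDE4B at chr1:65792514-66374579, PDE4A at chr19:10416773-10469631 and PDE7B at chr6:135851696-136195574 on the plus strand. All 10 were among the 15530 genes with enough counts to be tested, out of 23920 genes with a count. For PDE4B and PDE4D, the 47 transcripts of the deposited file were followed as well, 18 of PDE4B and 29 of PDE4D, of which 8 passed the filter on low counts.

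RNA-Seq had been done on 18 libraries in 6 groups of 3 biological replicates. The groups were wildtype cells, Gαs KO cells and cells edited in both β-arrestin genes (β-arrestin1/2 KO), each with vehicle (basal) or with 1 μM isoproterenol, a β-adrenergic agonist, for 1 h. Both KO lines had been made with CRISPR-Cas9, and the sources used here do not say whether a line is 1 clone. Cells of all 6 groups carried a plasmid for wild type β2AR, the β2 adrenergic receptor, introduced 48 h before stimulation, and had been starved of serum overnight, so the basal and stimulated groups share the extra receptor and the starvation.

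Phosphodiesterases cut the ring of cyclic nucleotides and so end the cAMP signal that adenylyl cyclases start when Gαs is activated by a receptor. PDE4, PDE7 and PDE8 enzymes act on cAMP, while PDE3 and PDE10A also take cGMP. PDE4 genes use several promoters: long forms carry conserved regulatory regions through which protein kinase A acts, short forms lack part of them, and the short forms of PDE4B and PDE4D are known in other cells as transcripts that cAMP induces, which closes a feedback loop. PDE4D5, a long form, is known to bind β-arrestin.

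Promoter sequence is shown for the genes whose cAMP-linked start sites the comparisons turn on, and for the members with the full CRE motif. The stretches end at the base before the earliest annotated start, come from RefSeq (GRCh38.p14), and run 5′ to 3′ on the gene's own strand. Capitals mark the cAMP-response element TGACGTCA or its 5-base core, TGACG or CGTCA, where the core and the full element can overlap. PDE4B, start of the short form, chr1:66331858-66332003, plus strand, and PDE4D, start of a short form, chr5:59039516-59039726, minus strand, hold no capitals. PDE4A, first start, is chr19:10416523-10416772, plus strand. PDE7B, the start of PDE7B-201, is chr6:135851451-135851695, plus strand.
PDE4B short form: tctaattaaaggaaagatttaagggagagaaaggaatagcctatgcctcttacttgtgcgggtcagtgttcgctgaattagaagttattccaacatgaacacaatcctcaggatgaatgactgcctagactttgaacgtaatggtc
PDE4D short form: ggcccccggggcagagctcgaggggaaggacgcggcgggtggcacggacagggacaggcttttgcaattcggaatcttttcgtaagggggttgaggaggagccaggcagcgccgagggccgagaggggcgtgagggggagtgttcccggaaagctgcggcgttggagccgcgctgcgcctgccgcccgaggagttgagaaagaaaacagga
PDE4A first start: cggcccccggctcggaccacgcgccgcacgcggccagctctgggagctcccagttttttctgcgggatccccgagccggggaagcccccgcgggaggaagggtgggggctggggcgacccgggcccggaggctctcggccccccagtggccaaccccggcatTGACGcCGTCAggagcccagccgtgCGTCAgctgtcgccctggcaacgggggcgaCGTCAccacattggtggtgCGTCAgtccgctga
PDE7B start: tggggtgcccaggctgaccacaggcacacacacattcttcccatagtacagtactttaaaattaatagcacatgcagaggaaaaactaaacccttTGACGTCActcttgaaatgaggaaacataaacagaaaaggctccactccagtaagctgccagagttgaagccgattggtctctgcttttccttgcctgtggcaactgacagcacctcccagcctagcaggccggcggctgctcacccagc

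RefSeq windows from 250 bases before to 50 after a start were at hand for 8 of the 10 genes, 30 windows in all. The full element was in 2 of the 30, 1 of PDE4A, where it lies across the start, and 1 of PDE7B. The core was in 4 of the 30, 1 each of PDE4A, PDE4C, PDE4D and PDE7B, and in 0 of the 6 PDE4B windows. Over all 35116 windows of the same length, both strands searched, 1.85% held the full element and 24.6% held the core. A match is a string of letters and not a measured binding site, and its absence says only that these letters are not in the window.

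The total per library ran from 17908597 to 25019834 counts with a median of 20419459. GNAS, the gene of Gαs, was at 1067 to 1752 CPM in basal wildtype and at 61.3 to 71.3 CPM in basal Gαs KO libraries. ARRB2 was at 81.5 to 131.8 CPM in basal wildtype and at 18.004 to 23.0 CPM in basal β-arrestin1/2 KO libraries, while ARRB1 overlapped between them (38.4 to 65.3 and 37.9 to 43.5 CPM). CPM is a count scaled to the size of its library, with the TMM correction for composition. All 7 markers fixed for HEK293-like cells passed the filter: VIM, KRT8, KRT18, NEFL, PAX2, NEFM and LHX1. The last 3 were low, at 0.9 to 3.56, 0.757 to 2.47 and 0 to 7.07 CPM. Of the other markers, 1 of 3 blood, 2 of 4 fibroblast and 0 of 2 endothelial ones passed. The fibroblast marker COL1A1 was at 18.4 to 47.7 CPM.

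A single library stood apart. In wildtype basal replicate 1 the count-weighted GC content was 52.5%, against 49.2 to 50.1% in the 17 others, and its median absolute departure from its group mean was 0.385 on the log2 scale, against 0.0553 to 0.241 in the others. Every comparison that uses wildtype basal cells rests on it, and in a fit over all libraries it also widens the spread used for the other lines, so member values that it moves are given without it as well. The part of its GC content in the results was not tested.

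Levels are of bulk RNA, in which fewer expressing cells and less RNA per cell cannot be told apart. In basal wildtype cells 6 members were well expressed and 4 were scarce. Per kilobase of annotated transcript, the level was 20.8 CPM for PDE7A, 15.1 for PDE10A, 14.6 for PDE8A, 11.2 for PDE3B, 9.80 for PDE4A and 8.44 for PDE4D. PDE4B followed at 0.50, PDE7B at 0.33, PDE3A at 0.28 and PDE4C at 0.22 CPM per kilobase. Neighbours in this order had overlapping libraries except PDE8A and PDE3B, PDE4D and PDE4B, and PDE4B and PDE7B. The PDE10A level includes short transcripts without a coding sequence, and a count of a short transcript weighs more on this scale. PDE10A-203, of 1822 bases, held 87.8, 87.3 and 91.9 counts in basal wildtype libraries. The order and the sums without such transcripts were not computed. The sum over the 10 members was 81.3 ± 3.49 CPM per kilobase (SD, n = 3) in basal wildtype cells and 85.9 ± 5.70 with isoproterenol. In the β-arrestin1/2 KO line the sum was 60.5 ± 0.737 without and 68.2 ± 1.63 with isoproterenol. In the Gαs KO line it was 51.6 ± 1.55 without and 49.98 ± 2.53 with it.

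**Figure D1:**
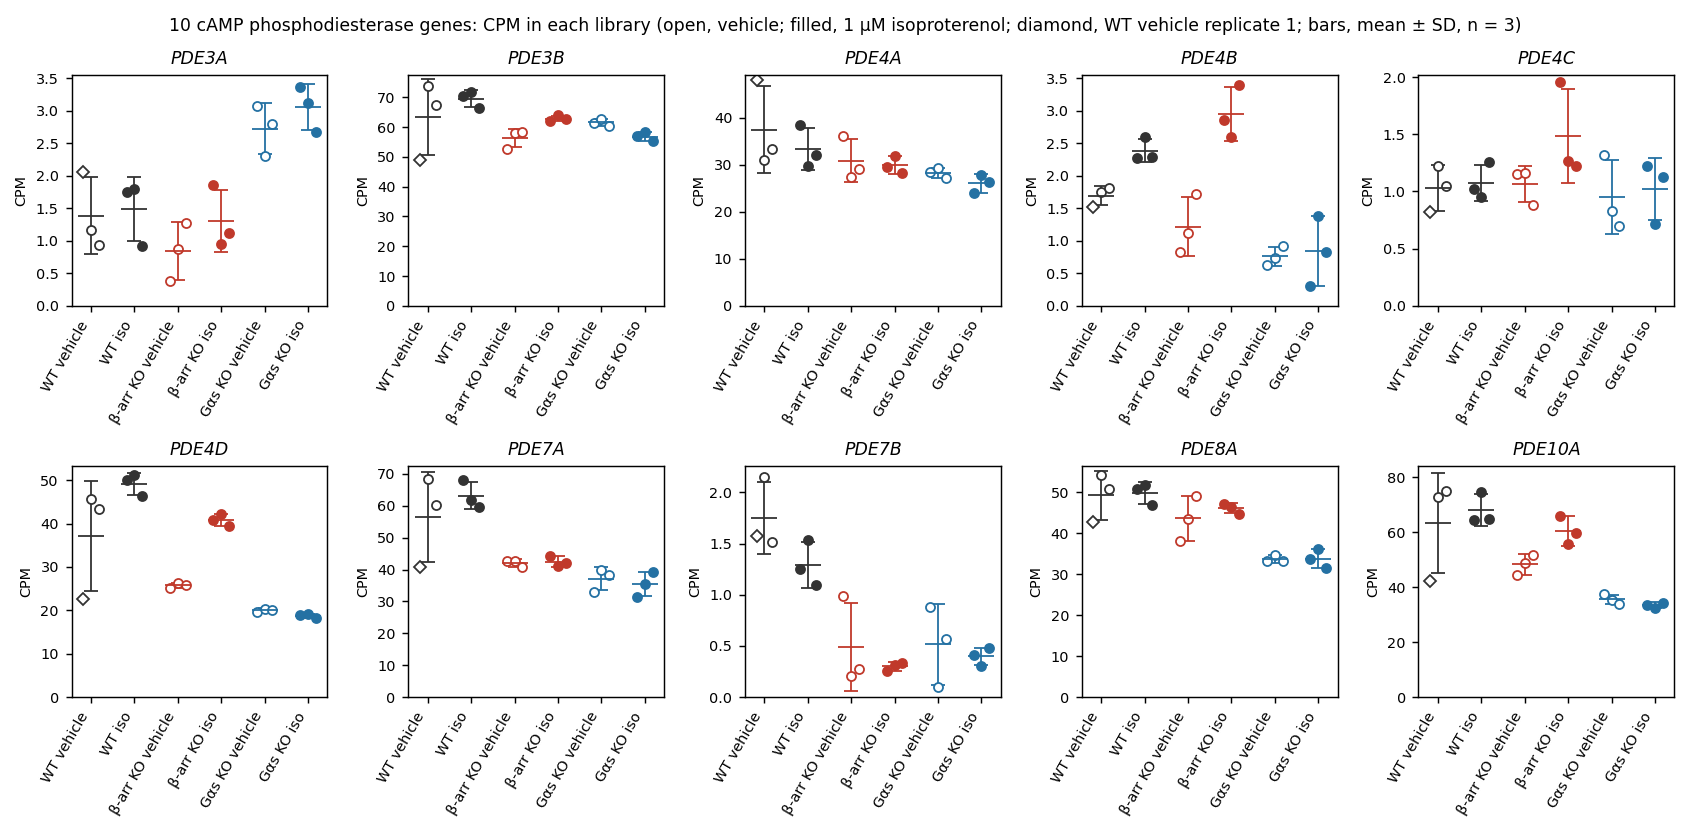
Level of each of the 10 phosphodiesterase genes in CPM (linear axis from 0, with its own scale for each gene), with a point for each library of the 6 groups (open, vehicle; filled, isoproterenol; diamond, wildtype vehicle replicate 1) and bars for the mean and SD of 3 libraries. PDE4D ran from 18.2 to 51.1 CPM and lay lowest in Gαs KO cells, and the lowest wildtype vehicle point of PDE4D, PDE10A and PDE7A is replicate 1.

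The first question was whether 1 h of isoproterenol changed the phosphodiesterase genes in each line. In the fit over all 18 libraries (edgeR's quasi-likelihood test, Benjamini-Hochberg adjusted p under 0.05 over all genes tested), 0 of the 10 members passed in any line. Of all genes tested, 0.464% passed in the wildtype line, 1.13% in the β-arrestin1/2 KO line and 0% in the Gαs KO line, where 164 genes had an unadjusted p under 0.05 and DESeq2's Wald test called 9. At an unadjusted p under 0.05 there were, in the same order, 1, 2 and 0 members, beside 1629, 1288 and 164 of the 15530 genes tested. DESeq2 called 0, 2 and 0 members. The median log2 response of the members was 0.10, 0.24 and -0.08, beside -0.002, -0.008 and -0.001 over all genes tested.

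PDE4D, a cAMP-specific enzyme, had the smallest adjusted p of the members in a response. In β-arrestin1/2 KO cells it was at 25.2, 26.2 and 25.8 CPM at basal and at 40.9, 42.2 and 39.4 CPM with isoproterenol. All 3 stimulated libraries lay above all 3 basal ones. The log2 response was 0.66 (SE 0.17, adjusted p = 0.094) in the fit over all libraries, and 0.66 (SE 0.06, adjusted p = 5.8e-07) in the same edgeR test without wildtype basal replicate 1. In the fit to the 6 β-arrestin1/2 KO libraries alone, the response was 0.67 (SE 0.06, adjusted p = 3.9e-04), and DESeq2's Wald test gave an adjusted p of 0.014. These settings also call many more genes: 11.7% of genes without that library, 7.93% with the 6 libraries alone and 1.87% with DESeq2. PDE4D passed in 8 of 30 alternative settings, with a log2 response between 0.56 and 0.69 in all of them.

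In wildtype cells PDE4D was at 22.6, 45.7 and 43.3 CPM at basal and at 49.9, 51.1 and 46.3 CPM with isoproterenol. The groups did not overlap, but replicates 2 and 3 at basal were close to the stimulated libraries and replicate 1 was far lower. The log2 response was 0.40 (SE 0.17, adjusted p = 0.44) with all libraries and 0.14 (SE 0.06, adjusted p = 0.33) without replicate 1. With offsets for GC content and length it was 0.23 (SE 0.05, adjusted p = 0.029). In Gαs KO cells PDE4D was at 19.5, 20.4 and 19.99 CPM at basal and at 18.8, 19.2 and 18.2 CPM with isoproterenol, a log2 difference of -0.09 (SE 0.17, adjusted p = 1).

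PDE4B, the cAMP-specific enzyme best known from immune cells, was scarce. In β-arrestin1/2 KO cells it was at 0.822, 1.12 and 1.71 CPM at basal and 2.86, 2.59 and 3.40 CPM with isoproterenol, from 15, 27 and 31 counts to 57, 49 and 61. The stimulated libraries all lay above the basal ones, and the log2 response was 1.28 (SE 0.37, adjusted p = 0.19). Without wildtype basal replicate 1 the response was 1.27 (SE 0.37, adjusted p = 0.033), and without Gαs KO isoproterenol replicate 1 the adjusted p was 0.049. In wildtype cells PDE4B was at 1.52, 1.75 and 1.81 CPM at basal and at 2.27, 2.59 and 2.29 CPM with isoproterenol (log2 0.49, SE 0.37, adjusted p = 0.59). These groups did not overlap either. In Gαs KO cells it was at 0.634, 0.734 and 0.919 CPM at basal and at 0.307, 1.38 and 0.831 CPM with isoproterenol, which overlapped (log2 0.13, SE 0.40, adjusted p = 1, and -0.44 without isoproterenol replicate 2).

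PDE10A, best known from the striatum, had a smaller response. In β-arrestin1/2 KO cells it was at 44.3, 48.8 and 51.7 CPM at basal and 66.1, 55.5 and 59.7 CPM with isoproterenol. The groups did not overlap, and the log2 response was 0.32 (SE 0.16, adjusted p = 0.62), or 0.32 (SE 0.07, adjusted p = 0.01) without wildtype basal replicate 1. In wildtype cells the 2 groups overlapped, at 42.3 to 75.1 and 64.6 to 74.7 CPM, and the response was 0.10, or -0.12 without basal replicate 1. In Gαs KO cells they overlapped at 34.0 to 37.4 and 32.4 to 34.3 CPM. The PDE10A sum includes transcripts without a coding sequence. In β-arrestin1/2 KO cells PDE10A-203, which has none, went from 35.6, 22.9 and 24.5 counts to 172.3, 110.4 and 142.1 with isoproterenol. The whole gene held 809, 1181 and 937 counts at basal and 1317, 1051 and 1072 with isoproterenol. The response without such transcripts was not tested.

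The other 7 members did not pass in any line, with or without wildtype basal replicate 1. PDE3B, an enzyme of insulin-responsive tissues that cGMP inhibits, was at 52.8, 58.1 and 58.3 CPM in basal and at 62.1, 64.0 and 62.7 CPM in stimulated β-arrestin1/2 KO cells. These groups did not overlap, and the log2 response was 0.16 (SE 0.11, adjusted p = 0.76), or 0.15 (SE 0.05, adjusted p = 0.058) without wildtype basal replicate 1. In Gαs KO cells it went the other way, from 61.4, 62.8 and 60.5 CPM to 56.9, 58.3 and 55.4 CPM (log2 -0.12, SE 0.11, adjusted p = 1). In the wildtype line the groups overlapped, at 49.0 to 73.7 CPM and 66.3 to 71.9 CPM, and the response was 0.13, or -0.02 without basal replicate 1.

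The PDE4A stretch above, with 5 cores, lies upstream of PDE4A-209, which was at 0 counts in all 3 basal wildtype libraries. PDE4A-203 and PDE4A-201, with means of 434 and 126 counts per library, start farther downstream. The windows that begin at positions 10420288 and 10430595, near those starts, held 0 cores. PDE4A was at 30.9 to 48.0 CPM in basal and 29.7 to 38.4 CPM in stimulated wildtype cells. The groups of each line overlapped, and its 3 log2 responses, wildtype first and Gαs KO last, were -0.17, -0.05 and -0.12. The sign in wildtype cells rested on basal replicate 1, since the response was 0.05 without it. The PDE7B stretch, with the full element, lies upstream of PDE7B-201, which held 0, 37.0 and 25.7 counts in basal wildtype libraries. In most KO libraries PDE7B-201 was at 0, and the counts were assigned to PDE7B-203, which starts at position 136038291. PDE7B was at 1.58, 2.15 and 1.52 CPM in basal wildtype cells and at 1.25, 1.53 and 1.09 CPM with isoproterenol. Its libraries overlapped in each line, and the 3 log2 responses were -0.44, -0.67 and -0.38 (SE 0.54, 0.65 and 0.62). The signs in the KO lines each rested on basal replicate 1 of that line, and without it the responses were 0.32 in β-arrestin1/2 KO and 0.22 in Gαs KO cells. PDE4C was at 1.15, 1.16 and 0.884 CPM in basal and at 1.96, 1.27 and 1.23 CPM in stimulated β-arrestin1/2 KO cells, a log2 response of 0.48 (SE 0.33, adjusted p = 0.76) between groups that did not overlap.

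PDE7A and PDE8A, high-affinity cAMP enzymes, had overlapping groups in each line, and their 6 log2 responses ran from -0.07 to 0.16. The wildtype responses changed sign without wildtype basal replicate 1, from 0.16 to -0.02 for PDE7A and from 0.02 to -0.08 for PDE8A. PDE7A was at 42.8, 42.7 and 40.7 CPM in basal and 44.3, 41.1 and 42.0 CPM in stimulated β-arrestin1/2 KO cells. PDE8A was at 33.3, 34.8 and 33.1 CPM in basal and 33.6, 36.1 and 31.5 CPM in stimulated Gαs KO cells. PDE3A, known from heart muscle and platelets, ran from 0.384 to 3.37 CPM over all libraries, with overlapping groups in each line and log2 responses of 0.10, 0.64 and 0.17 (SE 0.40, 0.42 and 0.38). Its wildtype response was 0.51 (SE 0.42, adjusted p = 0.65) without basal replicate 1 and -0.11 without basal replicate 3.

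**Figure D2:**
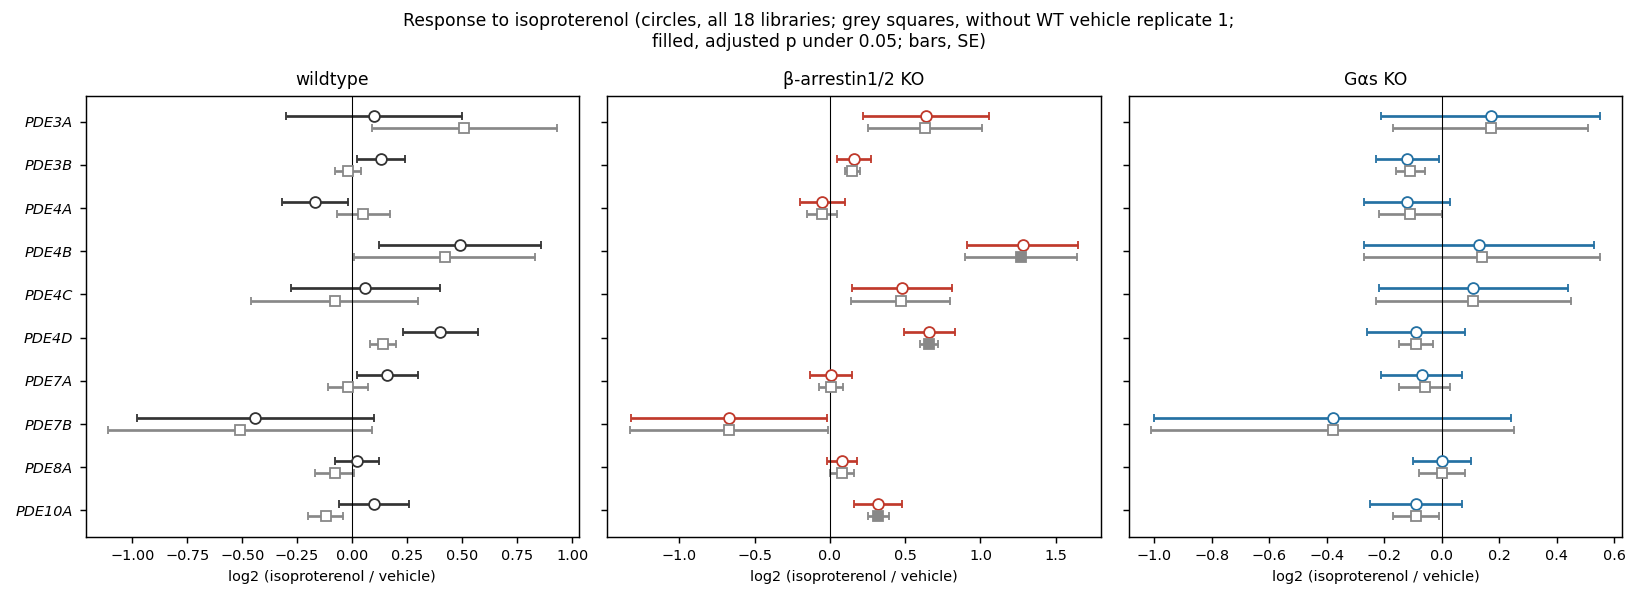
Log2 response to isoproterenol of each member in the 3 lines, which have separate x axes, fitted with all 18 libraries (circles) and without wildtype vehicle replicate 1 (grey squares), with bars for the SE and filled symbols for an adjusted p under 0.05. In the β-arrestin1/2 KO panel PDE4B (1.28) and PDE4D (0.66) had the largest increases, no circle is filled, and the squares of PDE4B, PDE4D and PDE10A are.

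Whether the response differed between lines was tested directly with an interaction term. In the fit over all libraries 0 of 10 members passed for the β-arrestin1/2 KO line minus wildtype, for the Gαs KO line minus wildtype and for the first KO line minus the other, where 0.167%, 0.161% and 0.406% of all genes passed. The unadjusted p was under 0.05 for 0, 0 and 1 members, beside 864, 719 and 749 of the 15530 genes tested. DESeq2 called 0 members in each. For PDE4D the differences in log2 response were 0.26 (SE 0.24), -0.49 (SE 0.24) and 0.76 (SE 0.24), with adjusted p of 1, 0.89 and 0.55 in that fit. Without wildtype basal replicate 1, the PDE4D response was larger in β-arrestin1/2 KO than in wildtype cells by 0.52 (SE 0.08, adjusted p = 0.0032), and that of PDE10A by 0.44 (SE 0.11, adjusted p = 0.026), while 8.24% of all genes passed. In the same fit the PDE4D response exceeded that of Gαs KO cells by 0.75 (SE 0.08, adjusted p = 2.6e-05), with 2.62% of all genes passing. With only the 12 libraries of those 2 lines, which leaves wildtype cells out, PDE4D (0.75), PDE10A (0.41) and PDE3B (0.27) passed at adjusted p of 1.1e-04, 0.044 and 0.039, beside 3.73% of all genes. The PDE10A sums here too include transcripts without a coding sequence, such as PDE10A-203. The PDE10A differences in response without them were not tested.

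Unstimulated Gαs KO cells, which lack the subunit that activates adenylyl cyclase, were then compared with unstimulated wildtype cells. 7 of the 10 members were lower and 0 higher (edgeR, all libraries), beside 31.3% of all genes called in either direction and 17.1% called lower. The median log2 difference of the 10 was -0.58, against 0.007 over all genes tested. PDE4D was at 19.5 to 20.4 CPM in Gαs KO cells and at 22.6 to 45.7 CPM in wildtype cells, a log2 difference of -0.90 (SE 0.17, adjusted p = 8.5e-04). PDE10A fell by 0.83 (SE 0.16, adjusted p = 7.3e-04), with 37.4, 35.3 and 34.0 CPM against 42.3, 72.8 and 75.1. PDE8A fell by 0.55 (SE 0.10, adjusted p = 6.9e-04), with 33.3, 34.8 and 33.1 CPM against 42.7, 54.3 and 50.9. In each of the 3 genes no Gαs KO library reached a wildtype one, and without wildtype basal replicate 1 the log2 differences were -1.16 for PDE4D, -1.06 for PDE10A and -0.64 for PDE8A. Part of the PDE10A sum has no coding sequence. PDE10A-203 was at 87.8, 87.3 and 91.9 counts in basal wildtype libraries, and every transcript of its start was at 0 in Gαs KO libraries. In wildtype basal replicate 1, the wildtype library nearest the Gαs KO ones, PDE10A held 777 counts. Of these 87.8 were of PDE10A-203, 45.4 of PDE10A-222 and 37.0 of PDE10A-209, all without a coding sequence. The separation of that library is therefore shown for the whole sum only. The PDE10A difference without these transcripts was not tested.

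The other 4 genes called lower in Gαs KO cells were PDE7A (log2 -0.60, SE 0.14, adjusted p = 0.0043), PDE4B (-1.14, SE 0.39, adjusted p = 0.035), PDE4A (-0.41, SE 0.15, adjusted p = 0.048) and PDE7B (-1.75, SE 0.57, adjusted p = 0.029). PDE7B rests on few counts, 29, 37 and 26 in wildtype and 18, 2 and 13 in Gαs KO libraries. PDE3B overlapped between the lines and PDE4C was at 0.700 to 1.32 CPM in both. PDE3A went the other way, at 2.30 to 3.07 CPM in Gαs KO and 0.935 to 2.07 CPM in wildtype cells (log2 0.96, SE 0.39, adjusted p = 0.073). Without wildtype basal replicate 1 there were 8 called members, 7 lower, with PDE3B (-0.20) in place of PDE4A, and PDE3A higher (1.37, adjusted p = 0.013), beside 45.9% of all genes. With only the 6 libraries of these 2 groups, 0 members passed, beside 10.8% of all genes. With each library left out in turn, PDE4D, PDE10A, PDE8A and PDE7A were called lower in all 18 fits, while only these 4 were left without Gαs KO basal replicate 2 or 3.

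In unstimulated β-arrestin1/2 KO cells 3 of 10 members were lower than in wildtype cells and 0 higher, beside 33.5% of all genes called and 17.9% called lower. PDE7B was at 0.987, 0.207 and 0.276 CPM against 1.58, 2.15 and 1.52 CPM, a log2 difference of -1.85 (SE 0.58, adjusted p = 0.022), on 18, 5 and 5 counts. PDE4D fell by 0.53 (SE 0.17, adjusted p = 0.025) and PDE7A by 0.42 (SE 0.14, adjusted p = 0.031), but wildtype basal replicate 1 lay below all KO libraries for PDE4D (22.6 against 25.2 to 26.2 CPM) and among them for PDE7A (40.8 against 40.7 to 42.8 CPM). Without it, 6 members were lower (PDE8A -0.27, PDE10A -0.61, PDE4D -0.78, PDE3B -0.32, PDE7B -1.92 and PDE7A -0.61), beside 46.7% of all genes. Without wildtype basal replicate 2, or without β-arrestin1/2 KO basal replicate 2 or 3, 0 members passed, and without wildtype basal replicate 3 or β-arrestin1/2 KO basal replicate 1 only PDE7B did. With only the 6 libraries of these 2 groups, 0 passed, beside 10.3% of all genes.

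Between the KO lines at basal, 3 of 10 members differed, beside 26.2% of all genes. PDE8A was higher in β-arrestin1/2 KO cells (38.2, 43.5 and 49.2 CPM) than in Gαs KO cells by 0.37 (SE 0.10, adjusted p = 0.013), and PDE10A by 0.44 (SE 0.16, adjusted p = 0.048). PDE3A was lower in β-arrestin1/2 KO cells, at 0.384, 0.868 and 1.27 CPM against 3.07, 2.30 and 2.80 CPM, by log2 -1.69 (SE 0.41, adjusted p = 0.0052). PDE3A was called in all 18 fits with 1 library left out, PDE8A in all but the fit without β-arrestin1/2 KO basal replicate 3, and PDE10A only in the 3 fits that leave out a wildtype basal library. Without wildtype basal replicate 1, PDE4D joined them (0.38), beside 45.2% of all genes. The basal comparisons share libraries, and each genotype is 1 line, so effects of the line and of the edited gene cannot be told apart.

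**Figure D3:**
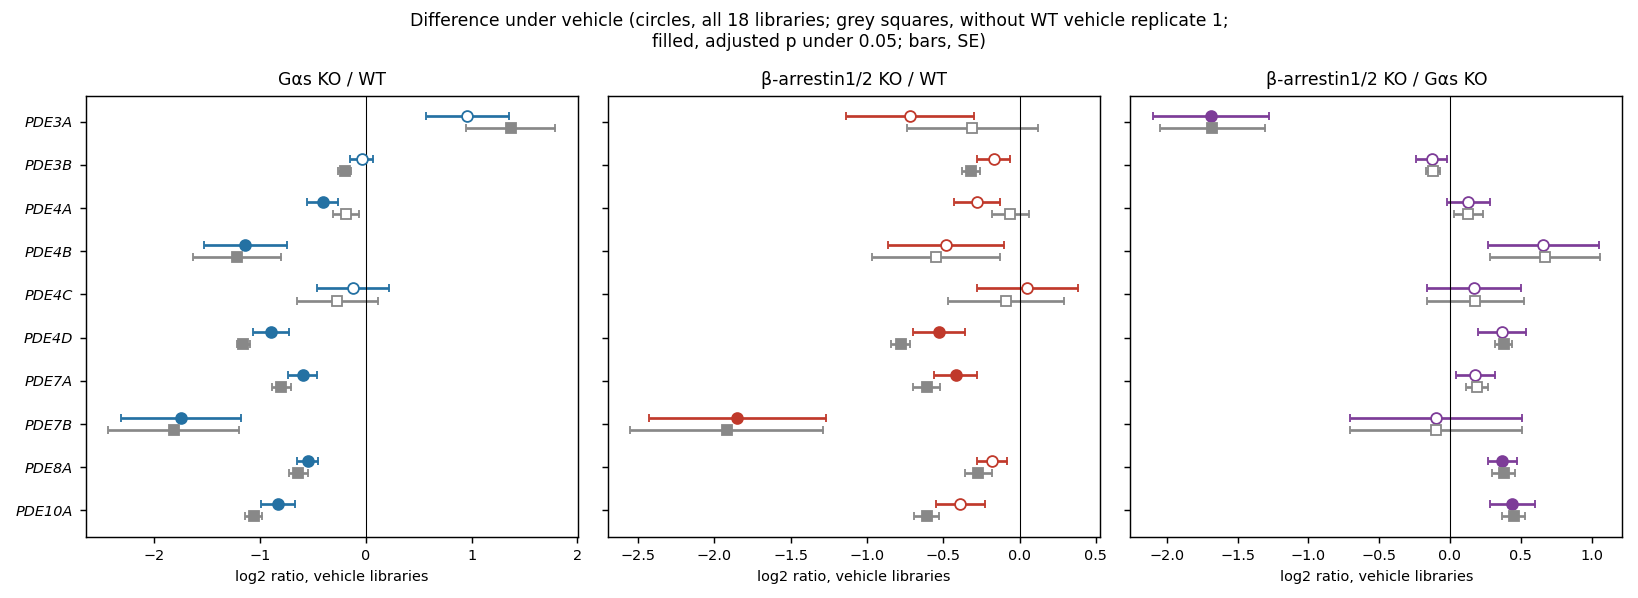
Log2 ratio of each member between vehicle libraries for the 3 pairs of lines, which have separate x axes, with the same symbols (circles, all 18 libraries; grey squares, without wildtype vehicle replicate 1; filled, adjusted p under 0.05; bars, SE). In Gαs KO against wildtype, 9 of 10 circles lie below 0, PDE7B lowest at -1.75, and PDE3A lies at 0.96.

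The transcripts of PDE4B and PDE4D were estimated by Salmon from reads that often fit several forms, so their split is less certain than the gene sum. Of the 8 that passed, PDE4B-203 is the short PDE4B2 of 564 residues and PDE4D-204 the short PDE4D2 of 507 residues. The other 6 were PDE4D-209, PDE4D-210, PDE4D-216, PDE4D-223, PDE4D-226 and PDE4D-228. In the edgeR fit 0 of the 8 passed in a response, and DESeq2 called 0 too, while 0.0839% of all 67941 transcripts passed in wildtype cells, 0.172% in the β-arrestin1/2 KO line and 0.00294% in the Gαs KO line. At an unadjusted p under 0.05 only PDE4D-204 was counted, in Gαs KO cells, where all but 1 of the 6 libraries were at 0. In that line 1438 of the 67941 transcripts had such a p. PDE4B-203 had a log2 response of 1.89 (SE 1.01, adjusted p = 0.87) in β-arrestin1/2 KO cells. PDE4D-216, the β-arrestin-binding form PDE4D5 of 745 residues, was at 0 in 11 of 18 libraries, among them all 3 of basal wildtype cells, and at most 1.34 CPM. Summed with PDE4D-209 and PDE4D-201, which start within 500 bases of it, it was at 1.95, 0.929 and 1.17 CPM in basal wildtype cells. PDE4D-204 was at 0.733, 2.15 and 1.13 CPM in basal wildtype cells and at 0, 0.227 and 0 CPM in basal Gαs KO cells, which did not overlap, though the edgeR test gave an adjusted p of 0.11.

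PDE4D-226, a form of 678 residues, was the most abundant PDE4D transcript in several groups. It was at 5.91, 26.6 and 32.9 CPM in basal wildtype, at 7.48, 5.80 and 3.71 CPM in basal Gαs KO and at 7.28, 13.2 and 10.4 CPM in basal β-arrestin1/2 KO cells. The first wildtype library lies among the KO values. The difference of Gαs KO from wildtype cells was the only transcript call (log2 -1.94, SE 0.49, adjusted p = 0.036), beside 4.18% of all transcripts, and it held in 8 of 27 alternative settings. With isoproterenol the transcript was at 18.3, 20.2 and 23.9 CPM in β-arrestin1/2 KO cells, a log2 response of 1.01 (SE 0.47, adjusted p = 0.87).

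Transcripts whose annotated starts lie within 500 bases were then summed, giving 11 start sites for PDE4B and 17 for PDE4D, of which 6 could be tested. The short-form start of PDE4B (chromosome 1, position 66332004), for which the upstream stretch is shown, was at 0, 0.743 and 1.55 CPM in basal and at 2.66, 2.59 and 3.01 CPM in stimulated β-arrestin1/2 KO cells. All stimulated libraries were above the basal ones, and the log2 response was 1.84 (SE 0.72, adjusted p = 0.46), or adjusted p = 0.076 without wildtype basal replicate 1. In wildtype cells it went from 0.596, 1.74 and 1.81 CPM to 2.27, 2.37 and 2.18 CPM (log2 0.72, SE 0.70, adjusted p = 0.65). This site held 88.7 to 100% of the PDE4B counts of the stimulated β-arrestin1/2 KO libraries.

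The short-form start of PDE4D (chromosome 5, position 59039515), which also holds PDE4D-223, a transcript without a coding sequence, was at 2.17, 3.95 and 3.45 CPM in basal wildtype, 3.80, 1.16 and 3.43 CPM in basal β-arrestin1/2 KO and 0.976, 0.244 and 1.35 CPM in basal Gαs KO cells. The Gαs KO values were below all of the wildtype ones, with a log2 difference of -1.87 (SE 0.51, adjusted p = 0.01), beside 31.3% of rows tested. It was higher in β-arrestin1/2 KO than in Gαs KO cells by 1.67 (SE 0.51, adjusted p = 0.023), beside 26.2% of rows, a call that was lost without Gαs KO basal replicate 1 or 2 or β-arrestin1/2 KO basal replicate 1 or 3. Its response was 0.08 (SE 0.48, adjusted p = 0.98) in β-arrestin1/2 KO cells, where 2.46, 2.12 and 4.24 CPM overlapped the basal libraries, and 0.37 in wildtype cells.

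The start of PDE4D-226 (chromosome 5, position 59217316) was at 7.93, 13.7 and 11.1 CPM in basal and 18.6, 20.6 and 24.4 CPM in stimulated β-arrestin1/2 KO cells. The groups did not overlap, and the site passed without wildtype basal replicate 1 (log2 0.95, SE 0.25, adjusted p = 0.02), beside 11.7% of rows, and its response exceeded that of wildtype cells by 1.29 (SE 0.36, adjusted p = 0.037), beside 8.23% of rows. With all libraries the start of PDE4D-226 was lower in basal Gαs KO than in wildtype cells by log2 -1.87 (SE 0.43, adjusted p = 0.0031), beside 31.3% of rows. These groups overlapped, at 8.20, 6.25 and 3.975 CPM in Gαs KO and 6.99, 26.6 and 33.9 CPM in wildtype cells. The low wildtype value is that of replicate 1. The start of PDE4D-210 at position 59276119 was at 2.15, 2.19 and 2.66 CPM in basal β-arrestin1/2 KO and at 3.90, 4.47 and 3.97 CPM in basal wildtype cells, a log2 difference of -0.82 (SE 0.25, adjusted p = 0.019), beside 33.5% of rows, lost without β-arrestin1/2 KO basal replicate 1 or 2. The start of PDE4D-228 (position 59430600, a form of 699 residues) was at 2.28, 9.17 and 0 CPM in basal wildtype cells, against 15.2, 15.8 and 15.1 CPM with isoproterenol (log2 2.01, SE 0.73, adjusted p = 0.37), a difference that passed only without wildtype basal replicate 2. In the basal wildtype library with 0 at that start, the start of PDE4D-226 was at 33.9 CPM, its highest value in the 18 libraries. Shares of PDE4D counts per library ran from 20 to 78.4% for the start of PDE4D-226, and from 0 to 57.7% for that of PDE4D-228 and from 1.3 to 14.9% for the short form.

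**Figure D4:**
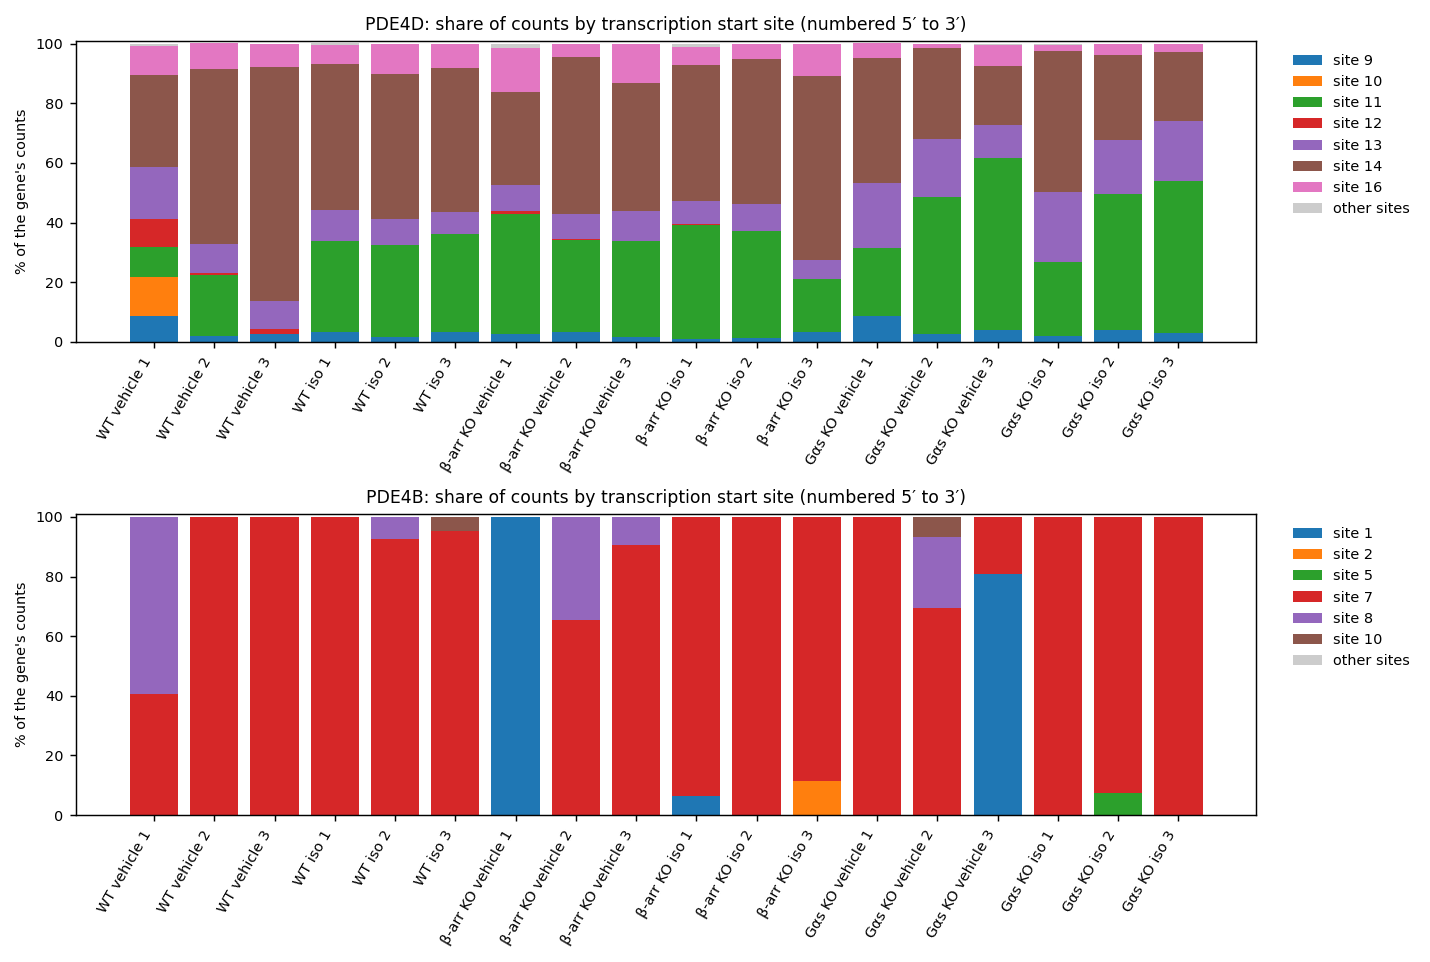
Share of the PDE4D (top) and PDE4B (bottom) counts of each of the 18 libraries by transcription start site, in percent, with sites numbered from the 5′ end. For PDE4D, site 14 is the start of PDE4D-226, site 11 that of PDE4D-228, site 13 that of PDE4D-210 and site 16 the short form, and for PDE4B site 7 is the short form. PDE4B site 7 held 0% in β-arrestin1/2 KO vehicle replicate 1 and 88.7 to 100% in the stimulated libraries of that line.

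Other genes of the pathway give the setting. Of 10 cAMP-responsive genes, 8 rose with isoproterenol in wildtype cells (median log2 2.39), 9 in the β-arrestin1/2 KO line (median 3.46) and 0 in the Gαs KO line (median 0.03, 1 at an unadjusted p under 0.05). Of all genes, 0.464%, 1.13% and 0% were called in either direction. This list was chosen with earlier results of these data known. It includes PCK1, FOS and DUSP1, whose responses in these libraries the paper reports, so its counts describe the setting and test nothing. The response of the listed genes was larger in β-arrestin1/2 KO than in wildtype cells for 5 of 10 and smaller in Gαs KO than in wildtype cells for 8 of 10. Of all genes, 0.167% and 0.161% were called in these 2 differences. At basal, 9 of the 10 were lower in Gαs KO than in wildtype cells, where 17.1% of all genes were called lower and 31.3% in either direction. Of 9 other phosphodiesterase genes tested, 0 responded in any line (0, 1 and 0 at an unadjusted p under 0.05), and PDE1B, PDE8B and PDE9A were lower in basal Gαs KO than in wildtype cells (-0.61, -0.95 and -0.68), so 3 of 9 were called, near the 31.3% of all genes. Against wildtype, basal β-arrestin1/2 KO cells had PDE6D higher (0.33) and PDE1B, PDE2A and PDE9A lower (-1.04, -1.55 and -0.80), 4 of 9 beside 33.5% of all genes. Of 10 PDE4 partner genes, 0 responded (4, 1 and 0 at an unadjusted p under 0.05), and of 19 genes for cAMP synthesis and effectors, 0 responded (1, 0 and 0) while 8 were lower and 1 higher in basal Gαs KO than in wildtype cells, beside the same 31.3% called in either direction. Over all 15530 genes tested, the responses had an unadjusted p under 0.05 for 1629, 1288 and 164 genes.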

How the data were processed

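Values deposited by the authors are expected counts: read pairs as apportioned by Salmon 1.7.0 among 184844 transcripts in 18 libraries, not normalized, and 0 sample columns were left unused. The submitters' processing notes name GRCh38 (hg38). The index, the annotation and the strand setting are not given in the sources used here, so reads of antisense genes at PDE4D and PDE3A cannot be told apart from those of the genes. Per the labels, mRNA was taken from total RNA with poly-T beads, and per the paper's methods, paired reads of 150 bases were sequenced and DESeq2 was used.

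Transcripts were joined without version to GENCODE release 29 (GRCh38), which gave names and coordinates, and 92.9 to 93.8% of a library's counts were kept. Gene sums were rounded. Tests used edgeR 4.0.16 in R 4.3.3: TMM, filterByExpr by group, a quasi-likelihood fit with 1 coefficient per group, Benjamini-Hochberg adjusted p under 0.05, in 9 comparisons. SE is the log2 value over the square root of F. Transcripts (67941 tested) and start-site sums were fitted likewise. DESeq2 1.42.0 served as an alternative. The code was tested on simulated data.

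The 10 members and the 8 filtered transcripts are all named. Of the lists, counts and medians are given. Members and lists were chosen with earlier results of these data known. Same-numbered replicates correlated between -0.0994 and 0.0769 in their departures, so they were not treated as pairs. These correlations cannot decide whether such replicates were handled together. Replicates are biological per the methods. Alternatives were scaling, filters, libraries entering the fit, a replicate block, each library left out, a stricter threshold, offsets for GC and length, and unmatched transcripts kept. The fits added once the data had been seen were those without wildtype basal replicate 1 with a replicate block or with only the groups compared. Counts limit the precision of PDE4B, PDE4C, PDE3A and PDE7B, where a library holds few counts.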

Additional observations from a re-analysis of the deposited data

How the results depend on the processing

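No called value changed its sign, but 56 refitted single values, none of them called, did. In the wildtype response, the fit without wildtype basal replicate 1 with a replicate block, and the fit to only the groups compared without it, turned PDE4A from -0.17 to 0.01 and 0.05, PDE8A from 0.02 to -0.06 and -0.08, PDE4C from 0.06 to -0.20 and -0.08, PDE10A from 0.10 to -0.12 in both, PDE3B from 0.13 to -0.01 and -0.02, and PDE7A from 0.16 to -0.01 and -0.02. They turned the basal PDE4C difference of β-arrestin1/2 KO from wildtype cells from 0.05 to -0.22 and -0.09. GC and length offsets, without and with the block, gave PDE8A -0.08 in both and PDE3A -0.10 and -0.05 in the wildtype response, and PDE4A 0.07 and PDE7A -0.05 in the β-arrestin1/2 KO response, where upper-quartile scaling gave PDE7A -0.01.

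With each library left out, the wildtype response ran from -0.29 to 0.05 for PDE4A, -0.08 to 0.09 for PDE8A, -0.08 to 0.21 for PDE4C, -0.12 to 0.25 for PDE10A, -0.02 to 0.26 for PDE3B, -0.11 to 0.51 for PDE3A and -0.02 to 0.33 for PDE7A. The β-arrestin1/2 KO response ran from -0.13 to 0.08 for PDE4A, -0.01 to 0.17 for PDE8A, -1.07 to 0.32 for PDE7B, -0.02 to 0.03 for PDE7A and -0.30 to 0.38 for the PDE4D short-form start. The Gαs KO response ran from -0.07 to 0.42 for PDE4C, -0.86 to 0.22 for PDE7B, -0.44 to 0.54 for PDE4B and -0.14 to 0.02 for PDE7A. At basal, PDE4C ran from -0.09 to 0.20 and -0.43 to 0.06 against wildtype (β-arrestin1/2 KO, then Gαs KO) and -0.01 to 0.48 between the KO lines, PDE3B from -0.20 to 0.08 (Gαs KO), and PDE7B from -1.08 to 0.51 between the KO lines.

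Same-numbered replicates were hardly correlated in their departures. The replicate block alone left member calls at 0 in each response, at 3 and 7 for β-arrestin1/2 KO and Gαs KO against wildtype at basal, and at 2 between the KO lines, and took the transcript call from 1 to 0. GC and length offsets gave 1 member in the wildtype response (beside 1.46% of all genes; also 1 with the block), 1 in the β-arrestin1/2 KO response (2.43%), 1 in its difference from wildtype (0.792%; 0 with the block) and 1 from Gαs KO cells (0.914%), and 6 for β-arrestin1/2 KO at basal (48.3%). DESeq2 gave 2 in the β-arrestin1/2 KO response (1.87%). With only the groups compared there were 3 in that response (7.93%), 3 in the difference from Gαs KO (3.73%) and 0 in both basal comparisons with wildtype (10.3% and 10.8%). With the block and without wildtype basal replicate 1 there were 4, 2 and 2 in the β-arrestin1/2 KO response and its differences (12.4%, 8.24% and 3.01%), 6 at basal against wildtype (46.3%) and 5 between the KO lines (45.5%). With only the groups compared and without that library there were 3 and 3 in the response and its difference from Gαs KO, 1 in that from wildtype (1.47%) and 5 at basal (42.7%). Unmatched transcripts kept gave 0 and 4 at basal against wildtype (21.5% and 20.1%), at least 10 counts in every library gave 4 for Gαs KO (34.6%), and a threshold of 0.01 gave 0, 4 and 1 (21.4%, 19.6% and 16.5%).

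For transcripts, DESeq2 gave 2, 3 and 1 at basal, the block without that library gave 1, and the Gαs KO call was 0 with no filter, the groups compared or 0.01. For start sites, the groups compared gave 1 in the β-arrestin1/2 KO response and 0, 0 and 2 at basal, both fits without that library gave 1, 1, 2 and 2, DESeq2 gave 2, 0.01 gave 0, 1 and 0, and a minimum of 10 counts gave 1 and 0. Leaving out each library gave member counts of 0 to 3, 0 to 2 and 0 to 1 in the β-arrestin1/2 KO response and its differences, and 0 to 6, 4 to 8 and 1 to 4 at basal. Transcripts ranged from 0 to 1, and start sites from 0 to 1 in responses and from 0 to 3, 2 to 4 and 0 to 2 at basal. The cause was not tested. Over all genes, the β-arrestin1/2 KO response held 175 calls, against 291 with DESeq2, 1161 with the groups compared and 1849 without wildtype basal replicate 1. Its difference from the wildtype response held 26 calls, against 104 with DESeq2 and 1301 without that library.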
